A study of Rattus norvegicus with 24 samples.

Results

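The aryl hydrocarbon receptor (AhR) and 9 genes of its pathway were followed in rats of a study of exposure to PCB (polychlorinated biphenyls, persistent chlorinated industrial compounds). The 10 genes were taken by symbol from a count table of 32883 genes, and all 10 were found. They are the receptor gene Ahr, its partner Arnt, the feedback genes Ahrr and Tiparp, the cytochrome P450 genes Cyp1a1, Cyp1a2, Cyp1b1 and Cyp2s1, and the enzyme genes Nqo1 and Aldh3a1. The rats were Sprague-Dawley, an outbred laboratory stock, aged 7 months, and messenger RNA was sequenced from their liver, brain, thymus and spleen. Each tissue had 3 libraries from exposed and 3 from sham-exposed rats, 24 in all. The labels call the treated rats SAM-exposed and the controls Sham, names kept here, and state no dose, duration, route, sex or genetic change. The animals were SAM 1, 2 and 3 against Sham 13, 14 and 15 in liver, and SAM 1, 2 and 3 against Sham 13, 15 and 16 in brain. Thymus and spleen came from SAM 1, 3 and 5 against Sham 14, 15 and 17. Nothing states that 1 number in different tissues is 1 rat.

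AhR is a transcription factor that waits in the cytoplasm in a complex with heat shock protein chaperones. Flat aromatic ligands, among them dioxins and the dioxin-like PCB congeners, release it to the nucleus, where it pairs with ARNT and binds xenobiotic response elements in the DNA. Cyp1a1 is the classical target and the most widely used readout of the pathway, with Cyp1a2 and Cyp1b1 beside it, while Ahrr and Tiparp are targets whose proteins damp the receptor. In the liver the pathway is known for oxidising foreign compounds, and in the thymus for the shrinkage that strong AhR ligands cause.

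The core of the response element is GCGTG, so the bases before the start sites are shown for 3 of the genes: Cyp1b1 and Ahrr, which hold the core, and Cyp1a2, the classical liver P450 of the pathway, which does not within this stretch. The sequences are from RefSeq on the GRCr8 assembly, which is not the build named in the submitters' processing notes. Each is the 250 bases before the start, 5′ to 3′ on the gene's strand, and capitals mark GCGTG on either strand (CACGC where it lies on the other strand).
Cyp1b1, chr6:21094315-21094564, plus strand: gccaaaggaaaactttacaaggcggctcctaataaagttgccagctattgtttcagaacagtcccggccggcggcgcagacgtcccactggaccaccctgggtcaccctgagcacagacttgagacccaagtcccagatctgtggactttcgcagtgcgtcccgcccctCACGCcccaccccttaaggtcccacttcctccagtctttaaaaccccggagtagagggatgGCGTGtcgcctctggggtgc
Ahrr, chr1:30821969-30822218, plus strand: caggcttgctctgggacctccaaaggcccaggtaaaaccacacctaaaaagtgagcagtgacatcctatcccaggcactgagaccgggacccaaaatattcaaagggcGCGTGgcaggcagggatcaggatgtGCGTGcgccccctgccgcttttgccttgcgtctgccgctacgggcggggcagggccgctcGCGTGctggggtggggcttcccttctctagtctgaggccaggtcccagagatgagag
Cyp1a2, chr8:66978150-66978399, minus strand: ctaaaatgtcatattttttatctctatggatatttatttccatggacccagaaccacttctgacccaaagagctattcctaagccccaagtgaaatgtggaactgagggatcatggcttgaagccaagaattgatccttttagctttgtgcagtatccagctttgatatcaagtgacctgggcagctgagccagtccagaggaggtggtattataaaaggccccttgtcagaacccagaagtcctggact
Promoter entries, running 50 bases past the start, were matched for 8 of the 10 members. Cyp1a1 and Aldh3a1 had none. GCGTG on either strand stood in 5 of the 8 (Cyp1b1, Ahrr, Arnt, Tiparp and Nqo1), against 29.7% of all 33469 rat promoters in the table. Ahrr held 3 matches, the first bases of which lay at -142, -117 and -57 from the start. Cyp1b1 held 2, at -81 and -20, while Arnt, Tiparp and Nqo1 held 1 each, at -42, -136 and -10. Cyp2s1, Ahr and Cyp1a2 held none. The longer form TNGCGTG, which contains the core, stood in 2 of the 8, Cyp1b1 and Ahrr, against 4.89% of all promoters. These are matches of letters, not measured binding.

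Values are in CPM (counts-per-million), scaled within each tissue by the TMM method of edgeR, and are given as mean ± SD of 3 libraries. A log2 fold change is SAM minus Sham and carries its standard error (SE). Tests are edgeR's quasi-likelihood test with Benjamini-Hochberg adjustment over all genes tested in the tissue, and a gene is called at an adjusted p under 0.05. Libraries held 12.9 to 20.1 M counts (M, mega). Some libraries stood apart. The 13 genes of the mitochondrial genome took 17.8% of the counts of SAM 1 in liver, where the remaining libraries had 5.71 to 8.07%. Among brain libraries, the 5 olfactory bulb markers, which mark a region at the front of the brain, summed to 479 CPM in SAM 1 and 356 CPM in SAM 2. They summed to 32.1 CPM in SAM 3 and 28.0 to 33.7 CPM in Sham. SAM 3 of brain held summed endothelial markers of 277 CPM, against 161 to 199 CPM in the other brain libraries. Its summed erythroid markers were 188 CPM, against 55.9 to 80.2 CPM. In thymus, SAM 1 and Sham 15 held 5.64 and 8.18% mitochondrial counts, against 2.95 to 3.64% in the others, and summed adipocyte markers of 526 and 795 CPM, against 25.8 to 131 CPM. In Sham, hepatocyte markers led in liver, neuron markers in brain, thymocyte markers in thymus and B cell and erythroid markers in spleen, which matches the labels. In bulk tissue, fewer cells of a type and less RNA per cell cannot be told apart.

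The comparison of SAM with Sham asked whether the pathway's transcripts differed with exposure in each tissue. No member was called in any tissue. In liver 5 of the 7 tested members had higher means in SAM, among them Cyp1a1, Cyp1a2, Cyp2s1 and Nqo1, and Cyp1a1 showed the widest difference of any member, a fitted 6.55-fold. In brain Cyp1b1 was 2.30-fold higher, with Arnt and Aldh3a1 also above Sham in every library. In thymus and spleen the tested members differed by at most 0.60 on the log2 scale. In each tissue 7 of the 10 passed the filter on low counts.

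The background was as empty: edgeR called 0% of the 12130 liver, 15126 brain, 15036 thymus and 14530 spleen genes it tested. At an unadjusted p under 0.05, 217 genes were higher and 110 lower in SAM liver, with 1806 and 1302 such genes for brain, 249 and 673 for thymus, and 323 and 274 for spleen. DESeq2 called 2 liver, 513 brain, 102 thymus and 7 spleen genes, while the lowest adjusted p that edgeR gave any gene was, for the same order of tissues, 0.0518, 0.221, 0.0877 and 0.854. Groups did not overlap, with SAM higher, for 2 of the 7 tested members in liver and 3 of 7 in brain. Over all tested genes the share was 5.19% in liver and 11.6% in brain. No tested member lay wholly lower in either tissue, where the shares were 5.63% and 12.2%. Ahrr, too low to test, lay wholly lower in brain, at 0 to 3 counts in SAM and 5 to 7 in Sham. In thymus 1 of 7 members lay wholly lower and none wholly higher, against 6.96% and 4.97% of all genes. In spleen the counts were again 1 and none, against 4.74% and 4.47%. Across liver, brain, thymus and spleen the members' median log2 fold change was 0.36, 0.36, -0.11 and -0.02, while the median over all tested genes was 0.02, 0.01, -0.00 and 0.00. The difference was positive for 5, 6, 2 and 2 of the 7 members, beside 52.2, 51.4, 49.5 and 50.8% of all tested genes. These members passed a filter that a high group can decide, so the counts describe the tested members, not all 10. Cyp2s1 in liver was such a case, at 10 to 18 counts in SAM and 7 to 9 in Sham. It passed through SAM, so its place among the 2 wholly higher and 5 positive liver members is no separate support.

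**Figure D1:**
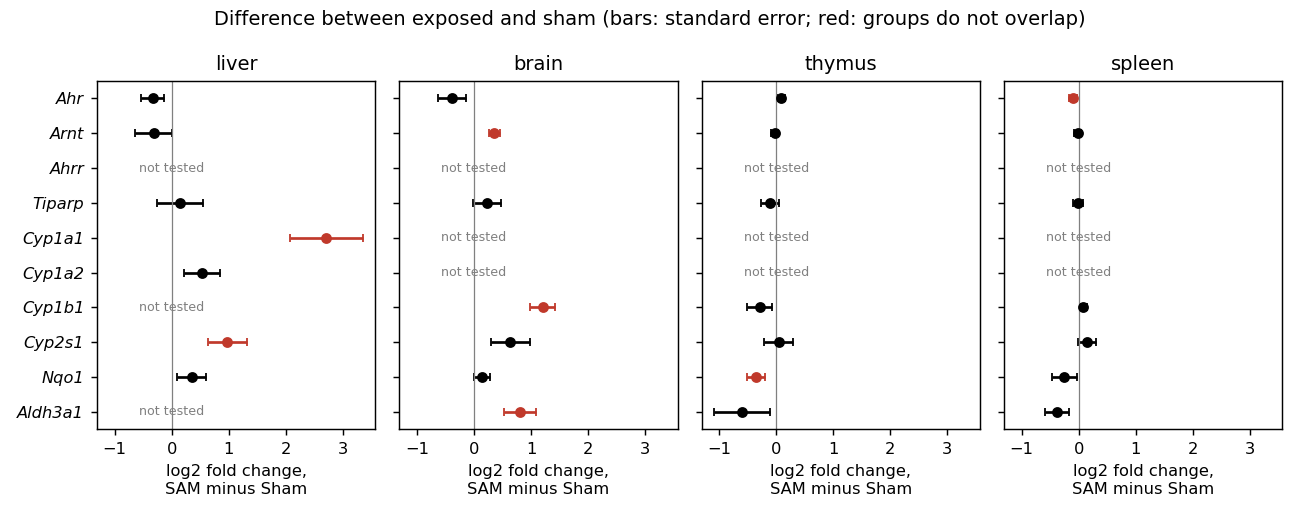
Log2 fold change, SAM minus Sham, of each member in the 4 tissues with its standard error, 3 libraries per group. Red points are genes whose groups did not overlap: Cyp1a1 (2.71) and Cyp2s1 (0.98) in liver, Arnt, Cyp1b1 and Aldh3a1 in brain, Nqo1 in thymus and Ahr in spleen.

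The receptor and its partner came first. Ahr (ENSRNOG00000004342) in liver measured 40.5, 62.6 and 62.0 CPM in SAM 1, 2 and 3 and 62.3, 74.7 and 70.2 CPM in Sham 13, 14 and 15. SAM 1 was the lowest library and the other 2 SAM values lay beside the lowest Sham value. The log2 fold change was -0.33 ± 0.20 (SE, adjusted p = 0.802 with edgeR), and -0.15 without SAM 1. In brain Ahr measured 7.83, 8.33 and 13.6 CPM in SAM 1, 2 and 3 and 14.6, 10.5 and 13.5 CPM in Sham 13, 15 and 16. The 2 low values belonged to the libraries with the olfactory bulb signal, whose part in the difference was not tested, and SAM 3 lay inside the Sham range. On the log2 scale SAM differed by -0.39 ± 0.25 (SE, adjusted p = 0.368 with edgeR). Ahr was called without SAM 3, at -0.68, in a fit that called 38.1% of all brain genes tested. It was 0.08 without SAM 1 and 2. Thymus libraries averaged 88.8 ± 8.50 CPM (SAM) against 83.9 ± 2.76 CPM (Sham), a difference of 0.08 ± 0.08 (SE) on the log2 scale.

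Ahr in spleen was 28.5, 29.8 and 27.8 CPM in SAM 1, 3 and 5 and 32.1, 30.1 and 30.1 CPM in Sham 14, 15 and 17. Every SAM library lay below every Sham library, by a narrow margin. The log2 fold change of -0.10 ± 0.07 (SE) did not pass (adjusted p = 0.967 with edgeR), and its 95% interval ran from -0.27 to 0.07.

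Arnt (ENSRNOG00000031174) encodes the partner that AhR needs to bind DNA and that also serves the hypoxia-inducible factors. In brain it measured 42.3, 44.2 and 35.8 CPM in SAM 1, 2 and 3 and 30.8, 31.7 and 32.9 CPM in Sham 13, 15 and 16. All SAM libraries lay above all Sham libraries, SAM 3 the closest to them. On the log2 scale the difference was 0.36 ± 0.10 (SE, adjusted p = 0.221 with edgeR). Arnt was called without SAM 3, at 0.44, where 38.1% of all brain genes tested were called. It measured 0.17 without SAM 1 and 2. In liver Arnt was 8.96, 23.6 and 20.2 CPM in SAM and 21.2, 19.8 and 25.1 CPM in Sham, and SAM 1 alone lay outside the Sham range. The difference there was -0.31 ± 0.33 (SE) on the log2 scale, and -0.00 without SAM 1. In thymus and spleen Arnt lay close between groups, with -0.02 ± 0.06 and -0.02 ± 0.07 on the log2 scale and 95% intervals from -0.17 to 0.12 and from -0.17 to 0.14.

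The feedback genes showed no difference that passed. Ahrr (ENSRNOG00000014721), the repressor that competes with AhR for ARNT, was too low to test anywhere. Its summed counts were 1 in SAM and 0 in Sham liver. In brain SAM 1, 2 and 3 held 0, 2 and 3 counts and Sham 13, 15 and 16 held 6, 7 and 5. The Sham counts were higher in each library, without a test. Thymus libraries held 1 to 4 counts each and spleen libraries 0 to 5.

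Tiparp (ENSRNOG00000011238) encodes an ADP-ribosyltransferase that modifies and damps AhR. In liver it measured 2.83, 7.76 and 9.78 CPM in SAM 1, 2 and 3 and 6.70, 5.51 and 6.41 CPM in Sham 13, 14 and 15. SAM 1 lay below and the other 2 SAM libraries above the Sham range. Its difference was 0.15 ± 0.40 (SE) on the log2 scale, ranging from -0.20 to 0.50 as single libraries were left out. In brain Tiparp was 8.86, 13.6 and 8.18 CPM in SAM and 9.43, 6.91 and 9.84 CPM in Sham, so that SAM 2 alone exceeded Sham. Its log2 fold change was 0.23 ± 0.24 (SE), against -0.11 ± 0.16 in thymus and -0.02 ± 0.09 in spleen, both with overlapping groups.

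The P450 genes held the 2 widest differences. Cyp1a1 (ENSRNOG00000019500) encodes the monooxygenase that oxidises polycyclic aromatic compounds and is the standard marker of AhR activation. In liver it had 332, 112 and 172 counts in SAM 1, 2 and 3 and 28, 33 and 61 counts in Sham 13, 14 and 15. In CPM these were 30.3, 5.65 and 11.4 in SAM and 1.77, 1.72 and 3.69 in Sham. Every SAM library lay above every Sham library, and SAM 1 stood well above the other 2. The means were 15.8 ± 12.9 and 2.39 ± 1.12 CPM (SD, n = 3).

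Cyp1a1 in liver differed by 2.71 ± 0.64 (SE) on the log2 scale, with a 95% interval from 1.22 to 4.20. By p it ranked 6 of the 12130 genes tested, and its adjusted p was 0.802 with edgeR. DESeq2 called it, at an adjusted p of 0.0409, as 1 of the 2 genes it called in liver (0.0111% of 18006 with an adjusted p). Over all alternatives run the adjusted p of Cyp1a1 ranged from 0.0409 to 0.99996. SAM 1 was also the library with 17.8% mitochondrial counts. A fit without the mitochondrial genes was among the alternatives. It keeps the library itself, so the part of that library's state in the result was not tested. Without SAM 1 the log2 fold change was 1.83, the lowest when single libraries were left out, and the highest was 3.16.

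Cyp1a2 (ENSRNOG00000016173) lies next to Cyp1a1 in the rat genome and encodes the liver P450 that metabolises caffeine and aromatic amines. It measured 3404, 1576 and 2100.5 CPM in SAM 1, 2 and 3 and 1211, 1715 and 1947 CPM in Sham 13, 14 and 15. The groups overlapped, with SAM 1 highest and Sham 13 lowest. Its log2 fold change was 0.54 ± 0.31 (SE, adjusted p = 0.802 with edgeR), and 0.18 without SAM 1.

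The authors' counting may split reads that fit both paralogues, which cannot be checked in a count table. For every 100 Cyp1a2 counts there were 0.89, 0.36 and 0.54 Cyp1a1 counts in SAM 1, 2 and 3. In Sham 13, 14 and 15 there were 0.15, 0.10 and 0.19. This ratio needs no scaling of libraries, and the groups did not overlap.

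**Figure D2:**
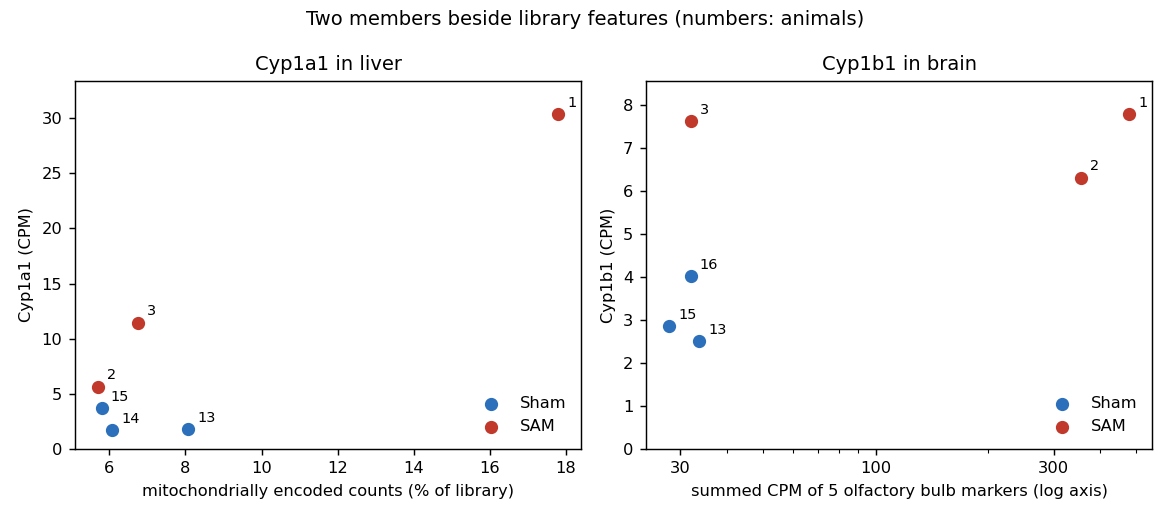
Left, Cyp1a1 (CPM) in the 6 liver libraries against the percentage of counts on mitochondrially encoded genes; right, Cyp1b1 (CPM) in the 6 brain libraries against the summed CPM of 5 olfactory bulb markers on a log axis. SAM 1 in liver holds both the highest Cyp1a1 (30.3 CPM) and the highest mitochondrial share (17.8%), whereas SAM 3 in brain has Cyp1b1 at 7.62 CPM with a marker sum (32.1 CPM) inside the Sham range.

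Outside liver, Cyp1a1 and Cyp1a2 were too low to test. In thymus Cyp1a1 had 7, 5 and 7 counts in SAM 1, 3 and 5 and 14, 37 and 2 counts in Sham 14, 15 and 17. Sham 15, the highest, also held the highest summed hepatocyte markers of the thymus libraries (68.9 CPM against 2.49 to 31.6 CPM) and the highest adipocyte markers, and their part in the count was not tested. In brain Cyp1a1 had 2 counts in SAM and 3 in Sham in all, and in spleen 1 and 2. Cyp1a2 was at 0 in every brain library.

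Cyp1b1 (ENSRNOG00000040287) encodes a P450 found mainly outside the liver, which oxidises steroids and aromatic compounds. In brain it measured 7.77, 6.30 and 7.62 CPM in SAM 1, 2 and 3 and 2.51, 2.85 and 4.02 CPM in Sham 13, 15 and 16. All 3 SAM libraries lay above all Sham libraries, with a gap wider than the spread within either group. SAM differed by 1.20 ± 0.22 (SE) on the log2 scale, with a 95% interval from 0.68 to 1.72, and the gene ranked 36 by p of the 15126 genes. The adjusted p was 0.221 with edgeR, and it ran from 0.00167 (DESeq2) to 0.559 over the alternatives.

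DESeq2 called Cyp1b1 among 3.26% of 15747 genes in brain, and the fit over all 24 libraries called it as well. Without SAM 1 and 2, the libraries with the olfactory bulb signal, the log2 fold change of Cyp1b1 was 1.28. It then rested on SAM 3 alone, the library with the high endothelial and erythroid markers, whose part was not tested. Leaving out single libraries moved the Cyp1b1 value between 1.07 and 1.43. Of 5 pericyte and fibroblast markers tested in brain, none was called. Their sum was 168, 145 and 215 CPM in SAM 1, 2 and 3 and 136 to 146 CPM in Sham, and the groups overlapped through SAM 2. The collagen gene Col1a1 and Dcn, both of fibroblasts, lay wholly above Sham, at 1.37 and 1.05 on the log2 scale. The pericyte markers Rgs5 and Pdgfrb differed by -0.06 and 0.11, with SAM 1 and 2 below all Sham libraries. The 6 choroid plexus and meninges markers summed to 105 to 110 CPM in SAM and 113 to 121 CPM in Sham, and 4 of them were tested. Of these 4, Ttr and Aqp1 lay wholly above Sham, at 4.42 and 1.52, and Enpp2 wholly below, at -0.27, with none called. The share of all brain genes was 11.6% wholly above and 12.2% wholly below. The part of these cells in the Cyp1b1 result was not tested.

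In spleen Cyp1b1 was high and close between groups, averaging 92.9 ± 4.04 CPM (SAM) against 87.6 ± 1.94 CPM (Sham), and differed by 0.09 ± 0.06 (SE) on the log2 scale. In thymus it was 20.3, 33.9 and 39.9 CPM in SAM 1, 3 and 5 and 42.2, 36.8 and 36.0 CPM in Sham 14, 15 and 17. SAM 1 was the lowest library by far. Its log2 fold change was -0.29 ± 0.22 (SE), and -0.05 without SAM 1. In liver Cyp1b1 was at 0 in each SAM library, with 4, 1 and 0 counts in Sham 13, 14 and 15.

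Cyp2s1 (ENSRNOG00000020743) encodes a P450 of epithelial and immune tissues that dioxin is known to induce. In liver it rested on 10, 18 and 16 counts in SAM 1, 2 and 3 and 7, 9 and 9 counts in Sham 13, 14 and 15. The CPM values were 0.914, 0.907 and 1.06 in SAM and 0.443, 0.468 and 0.544 in Sham. The groups did not overlap, at a level where few reads decide. Cyp2s1 passed the filter on low counts through its SAM libraries, so the higher SAM group was part of its being tested. On the log2 scale SAM differed by 0.98 ± 0.34 (SE, adjusted p = 0.802 with edgeR), and lay between 0.90 and 1.07 as single libraries were left out.

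In brain Cyp2s1 was 11.3, 8.98 and 4.29 CPM in SAM 1, 2 and 3 and 5.64, 5.58 and 4.69 CPM in Sham 13, 15 and 16. SAM 1 and 2 lay above Sham and SAM 3 below it. The log2 fold change was 0.64 ± 0.33 (SE, adjusted p = 0.301 with edgeR), and -0.30 without SAM 1 and 2. Without SAM 3 it was called at 0.93, as were 38.1% of all brain genes tested. In thymus and spleen Cyp2s1 differed by 0.04 ± 0.26 and 0.15 ± 0.16 on the log2 scale, with overlapping groups.

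Neither enzyme gene beyond the P450 family was called in any tissue where it was tested. Nqo1 (ENSRNOG00000012772) encodes a quinone reductase driven by both AhR and the oxidant sensor NRF2. In liver it measured 47.8, 52.9 and 65.6 CPM in SAM 1, 2 and 3 and 59.9, 32.0 and 38.3 CPM in Sham 13, 14 and 15. The groups overlapped through Sham 13. On the log2 scale the difference was 0.36 ± 0.26 (SE, adjusted p = 0.802 with edgeR). In thymus Nqo1 was 5.92, 4.54 and 5.38 CPM in SAM 1, 3 and 5 and 6.83, 7.00 and 6.45 CPM in Sham 14, 15 and 17. Every SAM library lay below every Sham library. Its log2 fold change was -0.36 ± 0.16 (SE, adjusted p = 0.820 with edgeR).

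Markers of epithelial cells were read beside Nqo1 in thymus. None of the 5, Epcam, Krt5, Krt14, Krt8 and Tp63, was called. In all 5 every SAM library lay below every Sham library, where 6.96% of all thymus genes did so, and their sums were 548 to 665 CPM in SAM and 982 to 1078 CPM in Sham. Their part in the Nqo1 value was not tested. In brain and spleen the groups overlapped for Nqo1, with log2 fold changes of 0.14 ± 0.14 and -0.25 ± 0.23 (SE).

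Aldh3a1 (ENSRNOG00000002331) encodes an aldehyde dehydrogenase that dioxin induces in rat liver. In liver it had 3 counts in SAM and 3 in Sham over all libraries, and was not tested. In brain it measured 1.63, 1.78 and 2.27 CPM in SAM 1, 2 and 3 and 1.06, 0.788 and 1.34 CPM in Sham 13, 15 and 16, from 13 to 30 counts each. The groups did not overlap, and SAM 3 was the highest library. SAM differed by 0.81 ± 0.28 (SE, adjusted p = 0.222 with edgeR) on the log2 scale, and by 1.08 without SAM 1 and 2. In thymus it was -0.60 ± 0.49 and in spleen -0.38 ± 0.21, with overlapping groups. The thymus value rested on Sham 15 (3.44 CPM), and was -0.11 without it.

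**Figure D3:**
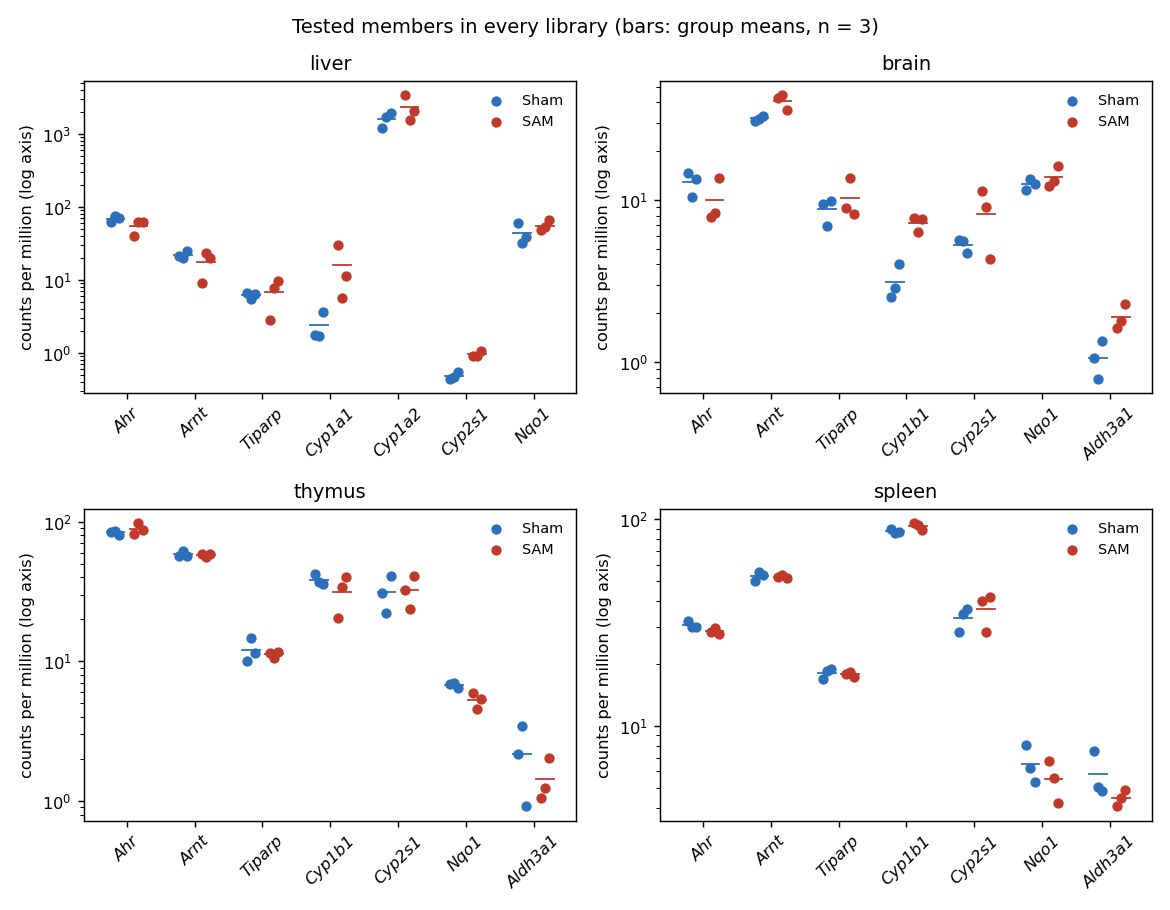
CPM of each tested member in every library of the 4 tissues on a log axis, Sham in blue and SAM in red, with bars at the group means of 3 libraries. The groups do not overlap for Cyp1a1 and Cyp2s1 in liver and for Cyp1b1, Arnt and Aldh3a1 in brain, while thymus and spleen groups lie on top of each other for most members.

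Whether the difference between SAM and Sham varied between tissues was tested in 1 edgeR fit over all 24 libraries. No member was called, against 2 of 17623 genes (0.0113%). Cyp1b1 came closest, at rank 97 and an adjusted p of 0.165, followed by Cyp1a1 at rank 316 and 0.308. This test takes in tissues where these genes were too low to test alone. Cyp1b1 had 0 counts in SAM and 5 in Sham liver. Cyp1a1 had 2 against 3 in brain, 19 against 53 in thymus and 1 against 2 in spleen. The part of these low counts in the ranks and calls was not tested. With SAM 3 of brain left out, Cyp1b1 was called at an adjusted p of 0.0452, as 1 of 990 genes called. Over all alternatives its adjusted p ran from 0.0452 to 0.824. The brain difference of Cyp1b1 exceeded that in thymus by 1.45 ± 0.33 on the log2 scale (SE, adjusted p = 0.0751 with edgeR), in a contrast that called 0.255% of genes. It exceeded that in spleen by 1.08 ± 0.33 (adjusted p = 0.273).

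Without SAM 3, 38.1% of 15493 genes were called in brain, and so were 4 of the 7 tested members, Cyp1b1, Cyp2s1, Ahr and Arnt. The members' share is to be read against that background.

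Other genes of the pathway were taken from 2 lists. Of 14 chaperones, partners and coactivators of AhR, 13 liver, 13 brain, 12 thymus and 13 spleen transcripts could be tested, and none was called. Their median log2 fold change was -0.09, 0.07, -0.10 and 0.10 in that order of tissues, against all-gene medians of 0.02, 0.01, -0.00 and 0.00. Single libraries moved these medians: in brain to 0.0095 without SAM 1, 0.013 without Sham 16, 0.099 without Sham 15 and 0.15 without SAM 3. The thymus median was -0.022 without Sham 14 and -0.14 without Sham 15, and the spleen median 0.012 without SAM 3 and 0.026 without Sham 14. Those named here are among the 3 with the lowest p in their tissue. In liver the chaperone Hsp90ab1 differed by -0.33 ± 0.17 and Hif1a, another partner of ARNT, by -0.41 ± 0.33 on the log2 scale (SE). Hif1a was lowest in SAM 1, the library of high mitochondrial counts. It measured 14.7, 40.2 and 34.6 CPM in SAM 1, 2 and 3 and 38.5 to 41.2 CPM in Sham. In brain the coactivators Ncoa3 and Ep300 differed by 0.42 ± 0.10 and 0.28 ± 0.11, and Hsp90ab1 by -0.20 ± 0.10. In thymus Hif1a differed by -0.28 ± 0.07, the corepressor Nrip1 by -0.16 ± 0.10 and the cochaperone Ptges3 by -0.14 ± 0.10. In spleen Ep300, Ncoa3 and Ncoa1 differed by 0.22 ± 0.10, 0.13 ± 0.07 and 0.13 ± 0.06.

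Of 22 further genes known to respond to AhR ligands, 20 were in the table. The liver test covered 13 of them, the brain test 11, the thymus test 15 and the spleen test 10, and none was called. Their median log2 fold change was -0.11, 0.19, -0.22 and -0.02 in that order. The thymus median rested on Sham 15, and was -0.034 without it and -0.058 without SAM 1 and Sham 15. The brain median was 0.094 without SAM 1 and 2. In liver Socs2, a brake on cytokine signalling, differed by 0.98 ± 0.44, the fatty acid carrier Cd36 by -0.69 ± 0.45 and Nfe2l2, the gene of NRF2, by -0.19 ± 0.15 (SE). For Socs2 and Cd36, SAM 1, the library of high mitochondrial counts, stood furthest from Sham. Socs2 was 52.1, 18.4 and 16.2 CPM in SAM 1, 2 and 3 and 11.8 to 17.3 CPM in Sham. Cd36 was 17.6, 71.7 and 55.0 CPM in SAM and 66.9 to 98.8 CPM in Sham. In brain the flavin monooxygenase Fmo1 differed by 1.79 ± 0.54, the methyltransferase Inmt by 2.25 ± 0.78 and Nfe2l2 by 0.23 ± 0.10. Fmo1 was 29.5, 14.6 and 7.86 CPM in SAM 1, 2 and 3 and 2.79 to 7.37 CPM in Sham. Inmt was 5.22, 1.90 and 0.891 CPM in SAM and 0.167 to 0.979 CPM in Sham. Both were highest in SAM 1 and 2, the libraries with the olfactory bulb signal, whose part was not tested. In thymus Socs2 differed by -0.57 ± 0.11, Nfe2l2 by -0.18 ± 0.07 and the DNA polymerase gene Poln by 0.63 ± 0.27. In spleen Poln differed by -0.40 ± 0.31 and the glutathione transferase Gstp1 by -0.07 ± 0.07. The adjusted p was 0.361 for Socs2 in thymus with edgeR.

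The levels across tissues were read in the 12 Sham libraries, scaled together, so these CPM values are on another scale than those above. With TMM scaling the receptor, its partner and the liver enzymes led in liver. These were Ahr, Arnt, Cyp1a1, Cyp1a2 and Nqo1, of which Ahr and Arnt were not highest there with library totals alone. Cyp1b1, Cyp2s1 and Aldh3a1 were highest in spleen and lowest in liver. Arnt and Tiparp spanned the narrowest ranges, 2.03-fold and 2.07-fold from brain to liver, on the same scaling. Of the 9 members tested, edgeR called 9 between liver and brain, 9 between liver and thymus and 8 between liver and spleen. It called 6 between brain and thymus, 7 between brain and spleen and 5 between thymus and spleen.

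The background of those 6 pairs was high. Over all 17204 genes tested, 81.4% were called between liver and brain, 77.3% between liver and thymus, 76.1% between liver and spleen, 82.5% between brain and thymus, 82.4% between brain and spleen and 62.3% between thymus and spleen. Cyp1a1 and Cyp1a2 passed the filter on low counts through liver alone, and Cyp1b1, Cyp2s1 and Aldh3a1 would not have passed it in liver, so their calls against those tissues follow in part from the filter. In liver 25.3% of the counts fell on 10 genes, where the other tissues had 6.18 to 10.7%, and the scaling factor of liver libraries was 0.430 to 0.457 against 1.18 to 1.48 elsewhere. With library totals alone and no such factor, the median of all genes fell by 1.44, 1.73 and 1.56 on the log2 scale in liver against brain, thymus and spleen.

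Ahr measured 166 ± 18.6 CPM in liver, 57.3 ± 1.37 CPM in thymus, 23.7 ± 0.851 CPM in spleen and 10.5 ± 1.75 CPM in brain (SD, n = 3). Each step in this order was called by edgeR, at 2.89-fold from thymus to liver, 2.42-fold from spleen to thymus and 2.24-fold from brain to spleen. The step from thymus to liver turned with library totals alone, to -0.21 on the log2 scale. Arnt stood at 52.7 ± 6.80 CPM in liver, 41.0 ± 2.10 CPM in spleen, 39.9 ± 0.886 CPM in thymus and 26.0 ± 0.856 CPM in brain, and spleen and thymus did not differ beyond their spread. The call of liver above spleen was lost without Sham 14 of spleen (adjusted p = 0.673 with edgeR). With library totals alone liver Arnt was lower than brain, thymus and spleen (-0.43, -1.34 and -1.21 on the log2 scale), so its place in the order depends on the scaling.

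Ahrr was near 0 everywhere, with 0 counts over the 3 Sham liver libraries, 18 over brain, 7 over thymus and 3 over spleen. The 0 in liver allows up to 0.443 CPM, at 3 counts per library, which covers counting error only. Tiparp was 14.9 ± 1.23 CPM in liver, 13.9 ± 0.858 CPM in spleen, 8.24 ± 1.39 CPM in thymus and 7.14 ± 1.29 CPM in brain. Liver and spleen were not called apart. Nor were thymus and brain, except with library totals alone (-0.49 brain minus thymus, adjusted p = 0.0172 with edgeR). With library totals alone liver was lower than brain, thymus and spleen (-0.39, -0.88 and -1.46 on the log2 scale).

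Cyp1a1 was 5.74 ± 2.74 CPM in Sham liver, 0.628 ± 0.638 CPM in thymus, 0.0483 ± 0.0496 CPM in brain and 0.0382 ± 0.0661 CPM in spleen. Liver exceeded thymus a fitted 9.05-fold, or 3.18 on the log2 scale. That value ran from 2.65 without Sham 17 of thymus to 4.31 without Sham 15 of thymus. With library totals alone the means were closer, at 2.51 ± 1.16 CPM in liver and 0.915 ± 0.926 CPM in thymus. The libraries then overlapped, with Sham 15 of thymus (1.92 CPM) above Sham 13 and 14 of liver (1.89 and 1.80 CPM). Brain and spleen were at 3 and 2 counts in all. Thymus was called above brain and spleen, although its libraries overlapped with theirs, and neither call held without Sham 15 of thymus (adjusted p = 0.0579 and 0.0531 with edgeR). The call against spleen was also lost without Sham 15 of spleen (adjusted p = 0.0533). Cyp1a2 was 3904 ± 966 CPM in liver, with no count in Sham brain or spleen and 3 counts in thymus. On the TMM scale and against a floor of 3 counts per library, liver was at least 26246-fold higher than brain and 22719-fold higher than spleen. With library totals alone the liver mean was 1709 CPM, so these bounds are lower on that scale.

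Cyp1b1 ran the other way, with 67.4 ± 1.30 CPM in spleen, 26.2 ± 2.64 CPM in thymus, 2.56 ± 0.645 CPM in brain and 0.239 ± 0.311 CPM in liver. Each step was called, at 2.57-fold from thymus to spleen and 10.2-fold from brain to thymus. The step from liver to brain, a fitted 10.8-fold, rested on 5 liver counts, a level under the 0.443 CPM that 3 counts per library allow. As single libraries were left out it ran from -5.13 (without Sham 13 of liver) to -2.89 on the log2 scale, liver minus brain. Cyp2s1 was 25.7 ± 3.45 CPM in spleen, 21.5 ± 6.75 CPM in thymus, 4.33 ± 0.436 CPM in brain and 1.16 ± 0.141 CPM in liver. Spleen and thymus did not differ beyond their spread, though edgeR called them apart without Sham 17 of thymus (adjusted p = 0.0282).

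Nqo1 was 103 ± 32.4 CPM in liver and 10.2 ± 0.852 CPM in brain, with 5.03 ± 1.05 CPM in spleen and 4.62 ± 0.132 CPM in thymus. Liver exceeded brain 10.1-fold, and spleen and thymus did not differ beyond their spread. Aldh3a1 was 4.46 ± 1.14 CPM in spleen, 1.48 ± 0.828 CPM in thymus, 0.869 ± 0.225 CPM in brain and 0.146 ± 0.146 CPM in liver. Thymus and brain overlapped and were not called apart, except without Sham 17 of thymus (adjusted p = 0.0133 with edgeR) and with library totals alone (adjusted p = 0.0374, at -1.04 brain minus thymus on the log2 scale). The call between liver and brain was lost without Sham 14 of liver (adjusted p = 0.0657 with edgeR).

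**Figure D4:**
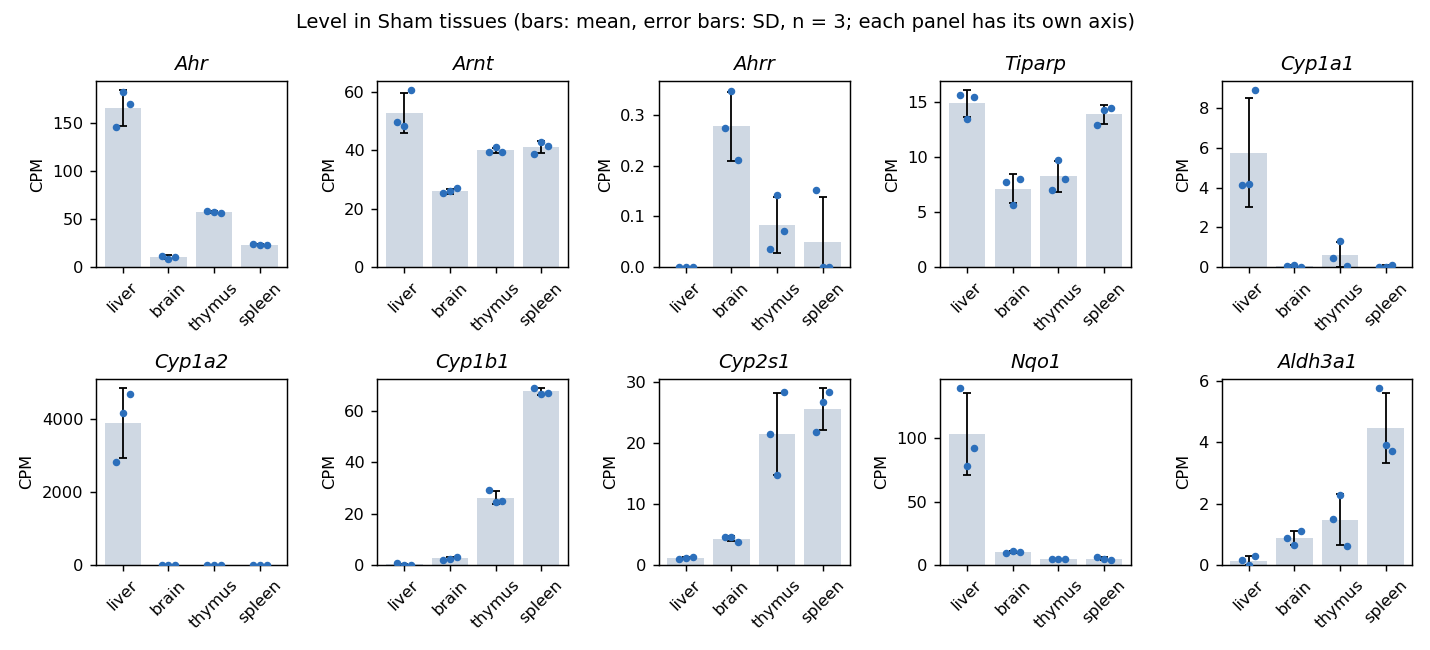
Level of each member in the 12 Sham libraries by tissue, with bars at the mean of 3 libraries, error bars of 1 SD and points for single libraries; each panel has its own CPM axis from 0. On this TMM scale Ahr, Cyp1a1, Cyp1a2 and Nqo1 peak in liver (Ahr in thymus with library totals alone), Cyp1b1, Cyp2s1 and Aldh3a1 in spleen, and Ahrr stays below 0.40 CPM everywhere.

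Over the 8 group means, Cblc and Ctbs were among the 3 genes whose centred log2 profile lay closest to that of Ahr, at root mean square differences of 0.24 and 0.28 on the log2 scale. The search ran over 15231 named genes averaging 1 CPM or more. For Cyp1a1 the closest were AABR07030091.1 (0.45), AC128848.1 (0.66) and Il17rb (0.67). For Cyp1b1 they were Tnn, Rpgrip1 and Ccdc88c, no nearer than 1.07, 1.12 and 1.15. The profiles share libraries, depth and scaling.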

How the data were processed

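The deposited file is 1 table of raw counts, whole numbers for each gene in 24 libraries. Its columns were assigned by tissue and animal. Per the labels' protocols, RNeasy-purified RNA went into stranded TruSeq mRNA libraries. The submitters' processing notes name STAR 2.2.1 and the rat build rn6 without a role. How reads were counted, with which strand setting and annotation, is not given in the sources used here. Reads that fit overlapping genes or paralogues can therefore not be traced.

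Counts were tested with edgeR 4.0.16 in R 4.3.3 (filterByExpr with a minimum count of 10, TMM, quasi-likelihood fit, Benjamini-Hochberg over all genes, threshold 0.05), each tissue alone. A single fit over 24 libraries tested differences between tissues, and another over 12 Sham libraries the levels. DESeq2 1.42.0, other scalings, filters, an animal block and leaving out libraries or the mitochondrial genes were alternatives. Steps were tested on simulated data, with the same relative spread for every gene, no library that stood apart and changes in well-counted genes only. That test does not cover the spread between these libraries or members at few counts. Every member was named, plus the 3 genes of lowest p per pathway list and tissue and the 3 nearest profiles of Ahr, Cyp1a1 and Cyp1b1. Some genes that this rule names are not reported here. Members and lists were chosen with earlier results of these data known. Nothing says how the replicate animals were kept or processed, so p-values measure the spread between these samples. No 2 replicates agreed within sampling noise (chi-square per degree of freedom from 5.95 to 193). Levels of different genes were not compared, since transcript lengths were not used here.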

Additional observations from a re-analysis of the deposited data

How the results depend on the processing

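Of 298 alternative counts of genes or members, 270 stayed within 1.5 times the reported count. Of 1364 alternative values of single genes and list medians, 1302 counted as unchanged. For log2 fold changes this meant the same direction and side of the threshold, whatever their size. For adjusted p values of the difference between tissues it meant the same side of the threshold. Group levels had to stay within their SD, list medians within the spread between replicates and the Cyp1b1 difference of brain minus thymus within its SE. The number of genes called in liver (0) became 1 with DESeq2 size factors in edgeR, 2 with DESeq2, 1 without the low-count filter, 3 in 1 fit of all 24 libraries and 0 to 1 as single libraries were left out; DESeq2 called 1 member. In brain it became 513 with DESeq2 and 579 in the fit of all 24, each with 1 member, Cyp1b1. It was 1 without SAM 1 and 2, and 0 to 5896 as single libraries were left out (0 to 4 members), the highest without SAM 3. In thymus it became 102 with DESeq2, 3 without the filter and 3 in the fit of all 24, and in spleen 7 with DESeq2 and 0 to 1 with single libraries left out. For the difference between tissues it became 15 without the filter and 1 to 990 with single libraries left out (0 to 1 members), the highest without SAM 3 of brain. The cause was not tested.

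Directions turned for small differences. With single libraries left out the log2 fold change ran from -0.20 to 0.50 for Tiparp in liver, from -0.033 to 0.35 for Tiparp in brain, from -0.043 to 0.012 for Arnt, -0.16 to 0.28 for Cyp2s1 and -0.22 to 0.048 for Tiparp in thymus, and from -0.065 to 0.0088 for Tiparp and -0.053 to 0.016 for Arnt in spleen. Without SAM 1 and 2 brain values were -0.30 for Cyp2s1, 0.078 for Ahr and -0.095 for Tiparp. Without SAM 1 and Sham 15, a choice made after seeing the data, thymus values were -0.16 for Cyp2s1, 0.036 for Tiparp and 0.066 for Aldh3a1. With library totals and no scaling factor, also chosen after seeing the data, Sham differences turned for Arnt (-0.43 liver minus brain, -1.34 liver minus thymus, -1.21 liver minus spleen, 0.13 thymus minus spleen), Tiparp (-0.39, -0.88 and -1.46 for liver minus brain, thymus and spleen), Ahr (-0.21 liver minus thymus) and Nqo1 (0.051 thymus minus spleen). The factor itself is what this alternative removes. Leaving out single libraries moved Tiparp from -0.22 to 0.17 (liver minus spleen) and Nqo1 from -0.24 to 0.063 (thymus minus spleen). DESeq2 size factors shifted the median of all genes by -0.21 for liver minus brain, 0.14 for brain minus thymus and 0.17 for brain minus spleen, and turned no member.

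With the animal number as a replicate block, which only the fits across tissues allow, 3 genes and 0 members were called for the difference between tissues, and the Cyp1b1 difference of brain minus thymus was 1.91 (adjusted p = 0.527 with edgeR). Under the block the Sham difference of Tiparp, brain minus thymus, was called (-0.51, adjusted p = 0.0448), and that of Aldh3a1, liver minus brain, was not (-2.29, adjusted p = 0.0510). The main fits did not take the numbers to pair the libraries. Deviations from group means correlated at -0.012 to 0.180 (median 0.040) for 25 pairs with equal numbers. For 83 pairs with different numbers the range was -0.256 to 0.131 (median -0.019). Of 23 libraries, 15 correlated best with 1 of their own number. If equal numbers are 1 rat, the main fits across tissues treat libraries of that rat as independent. Whether they are was not settled here. Transcript lengths were not in the sources used here, so the planned per-length alternative was not run. Values under 1 CPM rest on few counts, which limits Cyp1a1 outside liver, Ahrr, and Aldh3a1 and Cyp2s1 in liver.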
